A study of Homo sapiens with 14 samples.

Results

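The genes described here are 10 genes that encode WNT ligands, namely WNT10A, WNT6, WNT10B, WNT5A, WNT5B, WNT7A, WNT7B, WNT3, WNT3A and WNT9A, out of 20033 protein-coding genes in the annotation. They were chosen by name, with earlier results of these data known, and the other 9 WNT ligand genes serve as a comparison. A KLF4 peak was counted at a gene when its summit lay from 10 kb upstream of the gene start to 2 kb past the gene end. KLF4 binding was measured by ChIP-seq in BEAS-2B, an established human bronchial epithelial cell line, to ask how trivalent arsenic (As3+) and the transcription factor Nrf2 bear on where KLF4 sits. The 4 groups were WT cells left untreated (WT control), WT cells given 1 µM As3+ for 6 h (WT As3+), Nrf2 knockout cells left untreated (Nrf2 KO control) and Nrf2 knockout cells given the same As3+ treatment (Nrf2 KO As3+). The knockout was made by CRISPR-Cas9 in the same line, from colonies with no detectable Nrf2 protein, and the WT cells were colonies that kept it. Each group had 1 KLF4 library, so differences between groups could not be set against replicate error, and no test was made. A peak list cannot show the edited exon, so the knockout was not checked in these files.

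WNT proteins are lipid-modified secreted glycoproteins that act over short distances. PORCN attaches the lipid and WLS carries the ligand to the cell surface, where it meets a Frizzled receptor with LRP5 or LRP6. In the canonical branch this stops the destruction complex from degrading β-catenin, which then acts in the nucleus with TCF and LEF factors. Ligands such as WNT5A more often signal without β-catenin, through receptors such as ROR1, ROR2 and RYK. In the airway, WNT signalling takes part in lung development and in the upkeep and repair of the epithelium. KLF4 is a zinc-finger transcription factor that binds GC-rich words related to CACCC and is known for its part in pluripotency and in epithelial differentiation.

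The 4 lists differed greatly in length. WT control held 751 peaks, WT As3+ 29870, Nrf2 KO control 76545 and Nrf2 KO As3+ 130. For every peak the authors give a fold enrichment of the summit over its local background, a −log10 p and a −log10 q. From the fold and the p, the fragments piled up at a summit and the local background could be solved. The lowest local background was 1.90 fragments for WT control, 0.757 for WT As3+, 0.491 for Nrf2 KO control and 1.64 for Nrf2 KO As3+, so the long lists came from the libraries with the low background. The part of this background in the results below was not tested. At the lowest background a summit needed 10 fragments to enter the WT control list, 5 the WT As3+ list, 4 the Nrf2 KO control list and 9 the Nrf2 KO As3+ list. The labels of the Nrf2 KO libraries could not be checked either, and an exchange of the untreated and the As3+ library cannot be told apart from a change with As3+. Every Nrf2 KO value below rests on the labels as given. Fold enrichment is used below to describe and rank peaks within a list. Apart from the fold needed to enter a list, it is not used to compare libraries.

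KLF4 peaks lay at the WNT ligand genes in the WT As3+ and the Nrf2 KO control library and in neither of the others. The WT control list had a peak at none of the 10 genes, while 2.51% of all protein-coding genes had one. In the WT As3+ list 9 of the 10 genes had a peak, against 66.5% of protein-coding genes. The Nrf2 KO control list held peaks at all 10, against 81.0%, and the Nrf2 KO As3+ list at none, against 0.439%. The gene without a WT As3+ peak was WNT3, a ligand needed for gastrulation and limb outgrowth. The WNT genes thus followed the lengths of the 4 lists. With 10 genes only, their shares were not read as different from those of all genes.

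By the labels, the lists of the 2 genotypes changed in opposite directions with As3+. In WT cells 9 of the 10 genes had a peak after As3+ and none before, a pattern seen in 64.0% of protein-coding genes. In Nrf2 KO cells all 10 genes had a peak before As3+ and none after, a pattern seen in 80.6%. Peaks in both WT As3+ and Nrf2 KO control were present at 9 genes, against 64.0% of all genes, and WNT3 alone was in the class with an Nrf2 KO control peak but no WT As3+ peak, which held 17.0% of all genes. The nearest WT control peak lay between 37.1 kb (WNT10B) and 2260 kb (WNT3A) outside the windows of the WNT genes. The nearest Nrf2 KO As3+ peak lay between 276 kb (WNT7A) and 44533 kb (WNT10A) away. The 43 peaks of the WT As3+ library at the WNT genes had a median of 9 fragments, under the 10 that the WT control list needed at its lowest background. The 114 peaks of the Nrf2 KO control library had a median of 7, under the 9 of the Nrf2 KO As3+ list. These libraries differ in background, so their fragment counts are not on the same scale. By fold, 39 of the 43 reached the 3.79 that the WT control list needed at its lowest background. Of the 114, 97 reached the 3.79 that the Nrf2 KO As3+ list needed. Fragments and folds thus gave different pictures, and the share of the peaks that the shorter lists could have held at an equal signal was not determined.

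**Figure D1:**
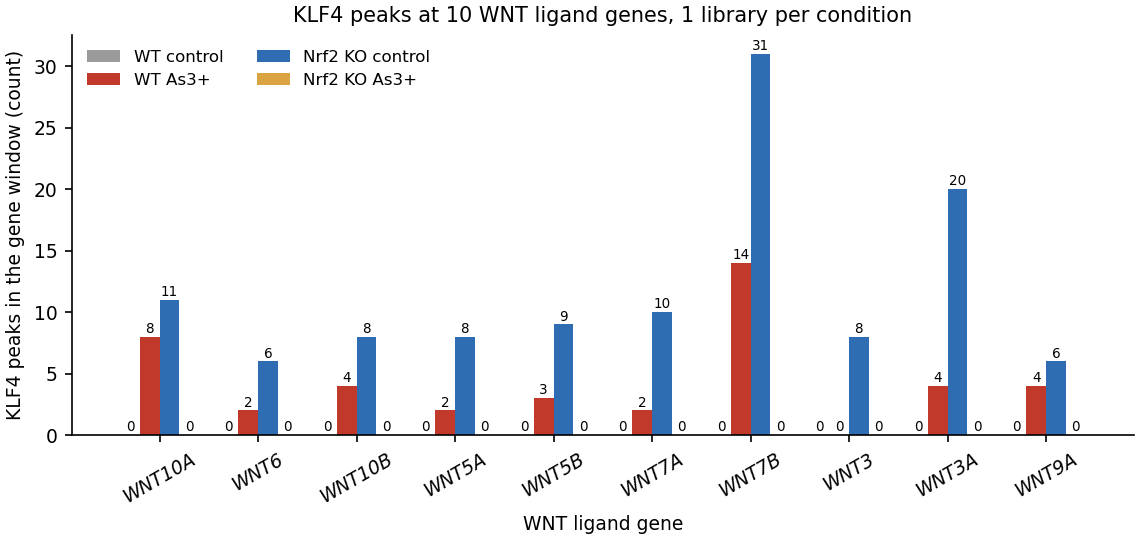
Number of KLF4 peaks (y axis, count) in the window of each WNT ligand gene (x axis) in the 4 libraries, 1 bar per library and gene, with the count printed above it. The WT control and Nrf2 KO As3+ bars are all 0, and WNT7B has the most peaks in both other libraries, 14 in WT As3+ and 31 in Nrf2 KO control.

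At the stricter threshold of a −log10 q of at least 5, peaks remained at 5 genes in the WT As3+ list (WNT10A, WNT10B, WNT7B, WNT3A and WNT9A), against 38.2% of protein-coding genes. The WNT10B peak among these lay within WNT1. In the Nrf2 KO control list 7 genes kept a peak, against 51.0%. The WNT genes had 43 distinct WT As3+ peaks as listed and 14 at the stricter threshold, and 114 and 23 Nrf2 KO control peaks. With the longer lists shortened to the 751 strongest peaks by −log10 p, the length of the WT control list, WNT10A alone had WT As3+ peaks, 2 in number, and no WNT gene had an Nrf2 KO control peak. The share of all protein-coding genes with a peak in the shortened lists was not determined. The WT control list, of the same length, had a peak at only 2.51% of them.

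The number of peaks relative to the length of the window differed more from other genes than the share of genes with a peak. The median over the 10 genes was 0.680 peaks per 10 kb in WT As3+ and 2.22 in Nrf2 KO control. Over all protein-coding genes the medians were 0.171 and 0.424 peaks per 10 kb. Among the 13491 protein-coding genes whose windows were as long as those of the WNT genes (18396 to 129322 bp) they were 0.242 and 0.493. The other 9 WNT ligand genes had medians of 0.491 and 0.793. The 4 target genes of the pathway, described below, stood higher than the 10 genes, at 0.909 and 2.92. Every other role of the pathway had lower medians than the 10 genes in both lists. A high density was thus not particular to these ligands. WNT10A, WNT10B and WNT7B had the densest peaks in WT As3+, at 2.60, 2.17 and 2.03 per 10 kb, and 1.58%, 2.63% and 3.19% of protein-coding genes were at least as dense. The densest in Nrf2 KO control were WNT7B, WNT10B and WNT10A, at 4.51, 4.35 and 3.58 per 10 kb, where 2.49%, 2.71% and 4.58% of genes were at least as dense. The window of WNT10B also holds WNT1, whose start was the nearest for 2 of its 4 WT As3+ and 6 of its 8 Nrf2 KO control peaks. WNT5B was the least dense gene with a peak in both lists, at 0.232 and 0.696 per 10 kb.

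WNT10A, a canonical ligand known for its role in teeth, hair and skin appendages, lies on chromosome 2 from 218880852 to 218899581 on the plus strand (GRCh38/hg38, as are all positions here). Its peaks numbered 8 in WT As3+ and 11 in Nrf2 KO control, and no peak was listed in WT control or Nrf2 KO As3+. The strongest WT As3+ peak of all the WNT genes was here, from 218896160 to 218897445, with a fold of 13.2 and 30 fragments over the summit (95% Poisson interval 20.2 to 42.8, for counting error only). It ranked 211 of 29870 by −log10 p, in the top 0.71% of its list. Further strong WT As3+ peaks lay beside it, one from 218897955 to 218898693 with a fold of 10.6 and 28 fragments, and one from 218892759 to 218893289 over coding exon 4 with a fold of 8.91 and 23 fragments. Together with weaker peaks they formed a group of 6 peaks within 6552 bp, between 11596 and 17483 bp past the gene start. The reference transcript ends at 218893928, and 4 of the 6 peaks lay past that end but within the annotated gene, whose last 5653 bp are covered only by a transcript with no defined coding sequence.

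The Nrf2 KO control library had 6 peaks in the same stretch, within 6025 bp. The highest of them, from 218896466 to 218896779, had a fold of 7.0 and 13 fragments (6.92 to 22.2) and was in the top 6.41% of its list. Its neighbour from 218898024 to 218898440 had a fold of 5.50 and 10 fragments, and the peak over exon 4, from 218892875 to 218893169, had a fold of 6.92 and 13 fragments. The exon 4 peak thus stood above that neighbour in Nrf2 KO control and below it in WT As3+. The strongest WT As3+ peak of WNT10A spanned 2 Nrf2 KO control peaks, among them the highest of the stretch. The other, with its summit 14 bp away, was only in the top 66.0% of the Nrf2 KO control list. Peaks before the gene start had lower folds than the 3 sites named above in both libraries. In WT As3+ there was 1 with its summit 921 bp upstream (fold 5.67, 11 fragments) and 1 at 162 bp upstream (fold 5.00, 9 fragments), while Nrf2 KO control had 4 there. The highest of the 4 was 8948 bp upstream, within WNT6 (fold 4.93, 7 fragments), and the nearest 1234 bp upstream (fold 4.31, 6 fragments). An intron 2 peak 3248 bp past the start, with a fold of 6.13, was listed in Nrf2 KO control only.

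WNT6, an epithelial ligand that neighbours WNT10A on the same strand, lies from 218859805 to 218874233, and 6618 bp separate both genes. It had 2 peaks in WT As3+ and 6 in Nrf2 KO control, and none of them reached a −log10 q of 5. In WT As3+ the peaks lay 3878 bp upstream (fold 4.89, 8 fragments) and 705 bp into the gene in intron 1 (fold 5.10, 9 fragments). The highest Nrf2 KO control peak, with its summit 230 bp upstream of the start, had a fold of 5.76 and 8 fragments. The windows of both genes overlap by 5382 bp, and 3 of the Nrf2 KO control peaks, in intron 3 of WNT6, fell in both windows and were counted once in the totals. No WT As3+ peak did so. Over the joint span of 51777 bp there were 10 WT As3+ and 14 Nrf2 KO control peaks, of which 5 and 3 reached a −log10 q of 5. All of these stronger peaks lay at WNT10A.

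**Figure D2:**
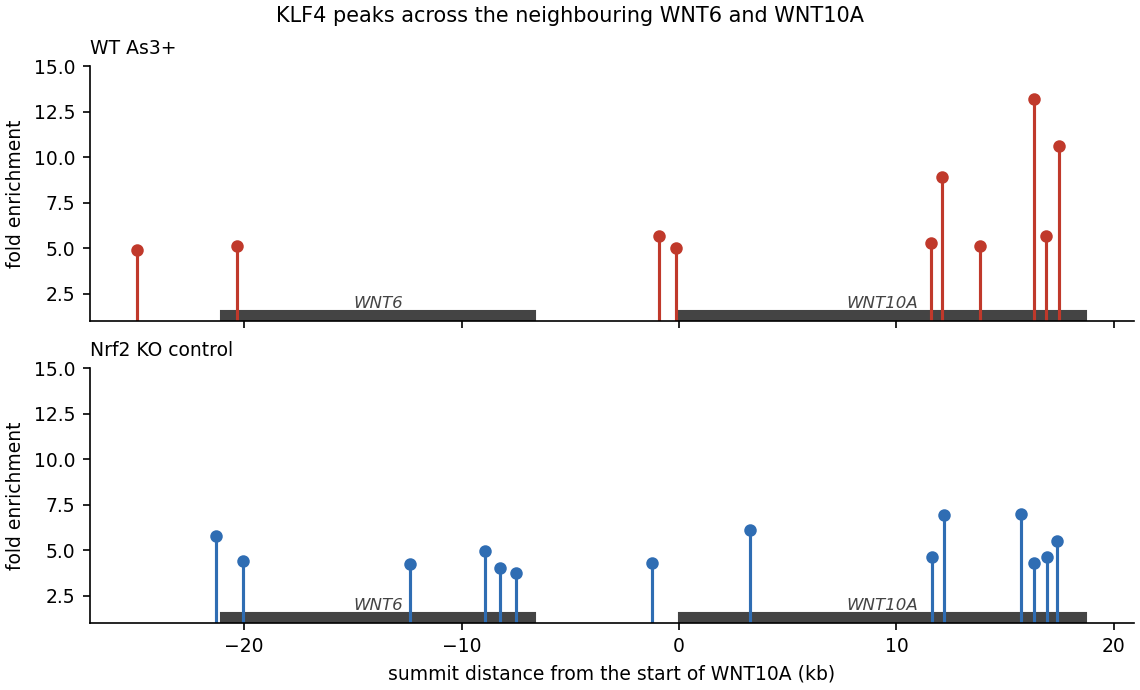
Fold enrichment at each KLF4 summit (y axis, from 1, the background level) against its distance from the start of WNT10A (x axis, kb) in WT As3+ (top) and Nrf2 KO control (bottom), with the annotated genes as dark bars. The tallest WT As3+ peaks, at folds of 8.91, 10.6 and 13.2, stand at the 3′ end of WNT10A, and no peak at WNT6 exceeds a fold of 5.76.

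The sequence around the strongest WT As3+ summit is shown for the 5 genes that had a peak at a −log10 q of at least 5, since these peaks carry the comparison of the genes. Each stretch has 200 bases of the plus strand, read from hg38 and centred on the summit. Capitals mark any match to the words searched here, on either strand, namely CCACACCC or CCACGCCC (a KLF core), CCCCGCCCC (a GC box), TGACTCA or TGAGTCA (AP-1) and TGACNNNGC (the core of an antioxidant response element, ARE). The WNT10A stretch is chr2:218897074-218897273, the WNT7B stretch chr22:45918931-45919130, the WNT9A stretch chr1:227946792-227946991, the WNT3A stretch chr1:228005717-228005916 and the WNT10B stretch chr12:48979760-48979959, which lies within WNT1.
WNT10A: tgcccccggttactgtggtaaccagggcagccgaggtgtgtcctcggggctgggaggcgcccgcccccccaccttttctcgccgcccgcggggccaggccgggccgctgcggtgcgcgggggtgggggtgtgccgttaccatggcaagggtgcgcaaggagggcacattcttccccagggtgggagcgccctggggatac
WNT7B: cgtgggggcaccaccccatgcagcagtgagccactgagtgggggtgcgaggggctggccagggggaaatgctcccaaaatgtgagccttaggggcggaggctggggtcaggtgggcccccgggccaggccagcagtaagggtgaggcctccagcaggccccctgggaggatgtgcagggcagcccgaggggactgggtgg
WNT9A: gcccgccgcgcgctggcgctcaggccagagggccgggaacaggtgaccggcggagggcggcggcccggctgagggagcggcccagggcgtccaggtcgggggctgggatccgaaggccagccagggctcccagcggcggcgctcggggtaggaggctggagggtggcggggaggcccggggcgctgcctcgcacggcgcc
WNT3A: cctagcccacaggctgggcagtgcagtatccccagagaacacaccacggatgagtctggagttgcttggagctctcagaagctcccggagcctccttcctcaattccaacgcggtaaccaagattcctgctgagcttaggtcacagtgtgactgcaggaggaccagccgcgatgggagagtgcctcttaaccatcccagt
WNT10B: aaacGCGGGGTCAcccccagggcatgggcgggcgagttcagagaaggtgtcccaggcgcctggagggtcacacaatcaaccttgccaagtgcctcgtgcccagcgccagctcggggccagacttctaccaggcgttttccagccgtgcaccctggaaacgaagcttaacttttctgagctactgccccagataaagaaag
The G and C content was 73.0% at WNT10A, 70.5% at WNT7B, 81.0% at WNT9A, 57.5% at WNT3A and 60.0% at WNT10B. The first 4 held none of the exact words searched, and the WNT10B stretch, around the weakest of these peaks, held 1 ARE core. Other words related to CACCC were not searched and are not marked.

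WNT7B, a ligand of the developing lung epithelium, occupies 45920366 to 45977162 of chromosome 22 (minus strand). It had 14 peaks in WT As3+, of which 5 reached a −log10 q of 5, and 31 in Nrf2 KO control, of which 5 did. The strongest WT As3+ peak by −log10 q lay past the 3′ end, 58131 bp from the start, with a fold of 6.79 and 28 fragments over a background of 3.27, the highest background among the 43. The peak 1629 bp upstream of the start, from 45978418 to 45979702, had a fold of 7.48 and 18 fragments. Its Nrf2 KO control counterpart, from 45978278 to 45979333, was the strongest Nrf2 KO control peak of all the WNT genes, with a fold of 9.07, 16 fragments (9.15 to 26.0) and a place in the top 1.37% of its list. The upstream site of WNT7B was thus high in both lists, in the top 7.56% of WT As3+.

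WNT9A, known for its role in joint formation, occupies 227918656 to 227947932 of chromosome 1 (minus strand). It had 4 peaks in WT As3+ and 6 in Nrf2 KO control, and 2 and 4 of these reached a −log10 q of 5. In WT As3+ the strongest was in intron 1, 1040 bp past the start, with a fold of 7.94 and 21 fragments (13.0 to 32.1), and the next was 316 bp upstream, with a fold of 7.87 and 19 fragments. The strongest Nrf2 KO control peak, 300 bp upstream of the start, had a fold of 7.0 and 13 fragments, and its summit was 16 bp from that of the WT As3+ peak. The peaks at the WNT9A start thus had similar places in both lists, the top 6.06% in WT As3+ and the top 6.41% in Nrf2 KO control.

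WNT3A, a canonical ligand of the early embryo, occupies 228006998 to 228061271 of chromosome 1 (plus strand). It had 4 peaks in WT As3+ and 20 in Nrf2 KO control, with 1 and 7 at a −log10 q of 5. The strongest WT As3+ peak was 1181 bp upstream, with a fold of 6.08 and 10 fragments (4.80 to 18.4). The strongest Nrf2 KO control peak was in intron 2, from 228037460 to 228038587, with a fold of 7.39 and 11 fragments, and it had no WT As3+ counterpart. Among the 10 genes WNT3A had the second most peaks in Nrf2 KO control after WNT7B. In WT As3+ its 4 peaks were the same number as at WNT10B and WNT9A, whose windows are shorter.

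WNT10B, a canonical ligand known for its role in bone and fat cell formation, occupies 48965340 to 48971735 of chromosome 12 (minus strand), with the ligand gene WNT1 within 10 kb upstream. It had 4 peaks in WT As3+ and 8 in Nrf2 KO control. The start of WNT1 was the nearest start for 2 of the 4 and for 6 of the 8, so most of this count belongs as much to WNT1. The strongest WT As3+ peak, with a fold of 5.54 and 12 fragments, was one of those, 1538 bp from the WNT1 start. At the WNT10B start itself a WT As3+ peak in exon 1, in the 5′ UTR and 61 bp past the start, had a fold of 4.54 and 10 fragments, and the Nrf2 KO control peak there had a fold of 4.53 and 12 fragments.

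WNT5A and WNT5B are ligands of the branch that works without β-catenin. WNT5A occupies 55465715 to 55490539 of chromosome 3 (minus strand) and had 2 peaks in WT As3+, both weak, with folds of 5.08 and 3.57. Of its 8 Nrf2 KO control peaks, 2 reached a −log10 q of 5, with folds of 7.28 and 7.10. The first of these lay 1810 bp past the outermost start, before the reference transcript begins, and the second in exon 1 of that transcript. WNT5B occupies 1529891 to 1647212 of chromosome 12 (plus strand), and its outermost start is 99340 bp upstream of the start of its reference transcript. It had 3 peaks in WT As3+ and 9 in Nrf2 KO control, with highest folds of 4.72 and 5.85, none at a −log10 q of 5. Counted from the reference transcript, only 1 peak was left in each list. FBXL14 also lies within the window of WNT5B.

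WNT7A, known for dorsoventral limb patterning, occupies 13816258 to 13880071 of chromosome 3 (minus strand). It had 2 peaks in WT As3+, in intron 3 (fold 5.44, 9 fragments) and 1028 bp past the start in intron 1 (fold 4.88, 8 fragments). Nrf2 KO control had 10 there, the strongest with a fold of 7.62 and 11 fragments in intron 3. WNT3 occupies 46762506 to 46833154 of chromosome 17 (minus strand), next to WNT9B. It had no WT As3+ peak and 8 Nrf2 KO control peaks. The highest of these, in intron 2 from 46772004 to 46772605, had a fold of 6.71 and 9 fragments (4.12 to 17.1) and was in the top 10.8% of its list. The remaining 7 had a −log10 q under 5. WNT3 and WNT9B, its neighbour, were both without a WT As3+ peak.

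**Figure D3:**
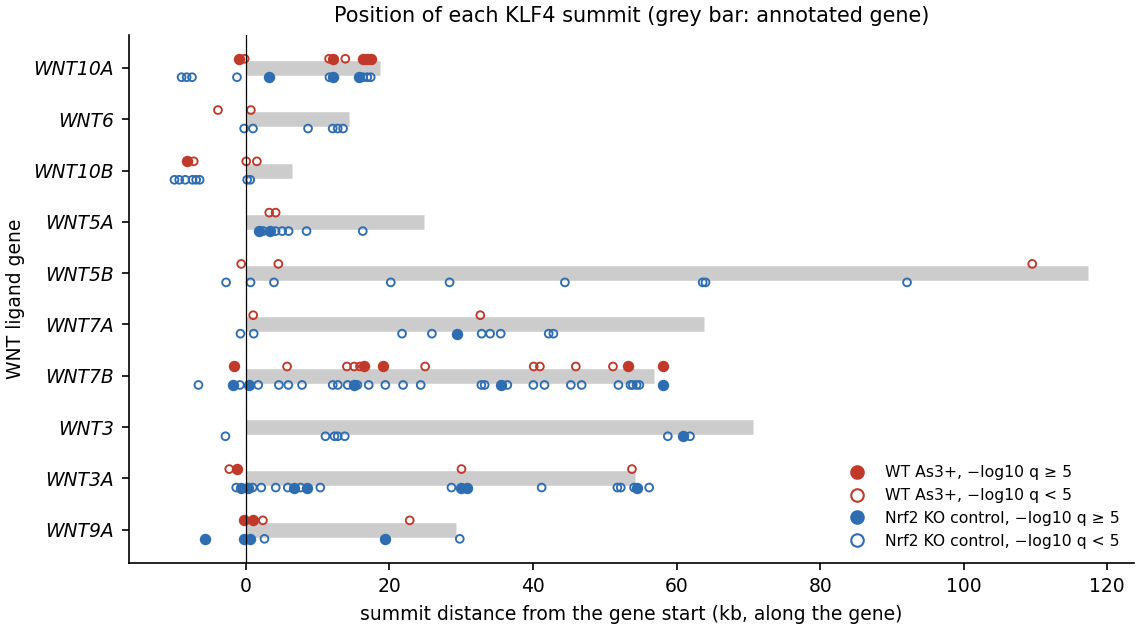
Distance of each KLF4 summit from the outermost gene start (x axis, kb, negative is upstream) at the 10 WNT ligand genes (y axis) in WT As3+ and Nrf2 KO control, with filled circles for a −log10 q of at least 5 and a grey bar for the annotated gene. Filled WT As3+ circles gather at the 3′ end of WNT10A and also stand near the starts of WNT10A, WNT9A, WNT3A and WNT7B. WNT7B has further filled WT As3+ circles far from its start, and WNT10B has a filled circle upstream. WNT6, WNT5A, WNT5B, WNT7A and WNT3 have no filled WT As3+ circle.

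Most peaks at the WNT genes lay away from gene starts. Of the 43 WT As3+ peaks, 11 (25.6%, 95% Clopper-Pearson interval 13.5% to 41.2%) had the summit within 2 kb of the start of a WNT gene described here, and 13 (30.2%, 17.2% to 46.1%) within 2 kb of the start of any protein-coding gene. Among all 23550 WT As3+ peaks at protein-coding genes 52.5% lay within 2 kb of a start. Of the 114 Nrf2 KO control peaks, 19 (16.7%, 10.3% to 24.8%) were near the start of a WNT gene described here and 25 (21.9%, 14.7% to 30.6%) near any start, against 34.1% of 56740. All of these intervals cover counting error only and treat the peaks as independent. WNT7B alone gave 14 of the 43 and 31 of the 114 peaks, with 1 and 4 of them near its start. The windows of the WNT genes were longer, at a median of 53776 bp against 39471 bp for all protein-coding genes, and the part of this was not tested. By the reference transcript, introns held 21 of the 43 WT As3+ peaks and 65 of the 114 Nrf2 KO control peaks. Upstream sequence held 10 and 18, and coding exons 3 and 4.

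Some sites were listed in both long lists. Of the 43 WT As3+ peaks at the WNT genes, 26 (60.5%, 44.4% to 75.0%) shared at least 1 bp with an Nrf2 KO control peak, close to the 61.5% of all WT As3+ peaks at protein-coding genes. Of the 114 Nrf2 KO control peaks 26 (22.8%, 15.5% to 31.6%) shared a base with a WT As3+ peak, against 25.5%. At a −log10 q of at least 5 in both lists, 6 of 14 WT As3+ peaks (42.9%) were shared. The share over all WT As3+ peaks at that threshold was not determined, so the lower value is not read as a trait of the WNT genes. No peak of either list at the WNT genes overlapped a WT control or an Nrf2 KO As3+ peak. Such overlaps were rare over all peaks at protein-coding genes. They were 1.82% and 0.221% of the WT As3+ peaks, and 0.516% and 0.0828% of the Nrf2 KO control peaks. Merged over both lists there were 130 sites at the WNT genes, of which 25 were in both, 17 in WT As3+ only and 88 in Nrf2 KO control only. No such split was made over all peaks.

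The overlapping peaks formed 27 pairs, with a median distance of 114 bp between the summits and 12 pairs within 100 bp. By place within its list, 13 pairs stood higher in WT As3+ and 14 in Nrf2 KO control. The lists differ in length and threshold, so a difference in place is not a change in binding. At WNT10A 7 of 7 pairs, from 6 WT As3+ peaks, stood higher in WT As3+. Pairs at a single gene are not independent, and the share over all overlapping pairs of both lists was not determined. At WNT7B 2 of 7 pairs did so, at WNT9A 2 of 3 and at WNT3A 0 of 4, from 3 Nrf2 KO control peaks. The largest gap in favour of Nrf2 KO control was in the 5′ part of WNT5A, where a peak with a fold of 3.57 was in the top 95.9% of WT As3+ and its counterpart with a fold of 7.10 in the top 8.38% of Nrf2 KO control.

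**Figure D4:**
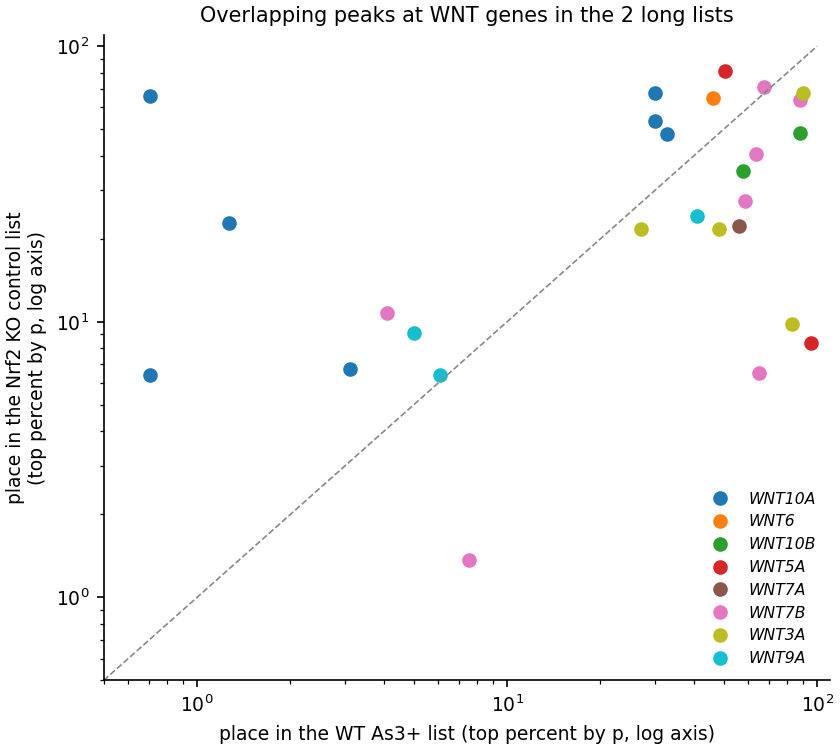
Place of each of the 27 overlapping pairs of peaks in the WT As3+ list (x axis, top percent by −log10 p, log axis) and the Nrf2 KO control list (y axis, the same measure), coloured by gene, with the dashed line at equal places. The WNT10A pairs lie above the line, which is the side of a higher place in WT As3+, and the WNT7B pair near the bottom is the peak upstream of its start, in the top 7.56% and 1.37%.

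The promoters of 8 of the 10 genes were matched to RefSeq entries of 300 bases (250 before and 50 after a start site, GRCh38.p14), in 10 entries, each identical to hg38. WNT10B and WNT7B were not matched. A WT As3+ peak lay over an entry of WNT10A, WNT5A and WNT9A, and an Nrf2 KO control peak over one of WNT5A, WNT6 and WNT9A. The 250 bases before the start are shown 5′ to 3′ for 3 of these genes, with GC boxes in capitals. The WNT10A stretch holds a WT As3+ summit (162 bp upstream), the WNT6 stretch an Nrf2 KO control summit (230 bp upstream), and peaks of both lists reach into the WNT9A stretch. The WNT10A stretch is chr2:218880602-218880851 (plus strand), the WNT6 stretch chr2:218859555-218859804 (plus strand) and the WNT9A stretch chr1:227947933-227948182 (minus strand).
WNT10A: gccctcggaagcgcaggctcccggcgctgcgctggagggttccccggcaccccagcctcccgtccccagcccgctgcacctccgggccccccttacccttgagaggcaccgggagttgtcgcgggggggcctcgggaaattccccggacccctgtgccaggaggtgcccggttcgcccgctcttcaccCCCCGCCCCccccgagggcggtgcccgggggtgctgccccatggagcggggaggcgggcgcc
WNT6: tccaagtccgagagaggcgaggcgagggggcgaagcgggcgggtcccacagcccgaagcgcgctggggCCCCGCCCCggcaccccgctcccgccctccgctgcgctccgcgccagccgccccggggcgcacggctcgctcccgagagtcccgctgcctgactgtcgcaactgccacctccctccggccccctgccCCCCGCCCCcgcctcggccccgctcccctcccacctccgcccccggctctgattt
WNT9A: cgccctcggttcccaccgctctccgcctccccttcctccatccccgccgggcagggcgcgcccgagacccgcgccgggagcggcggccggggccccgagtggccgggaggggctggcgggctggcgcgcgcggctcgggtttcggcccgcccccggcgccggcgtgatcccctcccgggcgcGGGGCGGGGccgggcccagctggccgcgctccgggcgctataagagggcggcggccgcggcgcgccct
The stretches are rich in G and C, at 77.6%, 79.2% and 84.4%, and hold 1, 2 and 1 GC boxes. A GC box was present in 7 of the 10 entries, 1 from each gene but WNT3, against 15.7% of 35116 promoters of that length. The promoters compared were not matched for G and C content, which ran from 51.7% to 86.0% over the 10 entries. No entry held a KLF core, an AP-1 word or an ARE core, which were found in 8.05%, 4.95% and 13.3% of all promoters. A word in a promoter is a description of its letters and was not tested against binding.

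Any of the exact words searched here was found in 18.6% of the WT As3+ and 19.3% of the Nrf2 KO control summit windows at the WNT genes. Other words related to CACCC were not searched, so sites of that kind may have been missed. A KLF core lay in 2 of the 43 WT As3+ windows of 200 bp (4.65%, 0.568% to 15.8%), against 10.3% of all WT As3+ windows, and in 4 of the 114 Nrf2 KO control windows (3.51%, 0.964% to 8.74%), against 9.27%. Both WT As3+ windows are shown on the plus strand, with the core in capitals, since they are the peaks in which a KLF core as defined here was found. The WNT6 stretch is chr2:218855827-218856026, around the upstream peak with a fold of 4.89, and the WNT7B stretch is chr22:45962985-45963184, in intron 1, around a peak with a fold of 3.66.
WNT6: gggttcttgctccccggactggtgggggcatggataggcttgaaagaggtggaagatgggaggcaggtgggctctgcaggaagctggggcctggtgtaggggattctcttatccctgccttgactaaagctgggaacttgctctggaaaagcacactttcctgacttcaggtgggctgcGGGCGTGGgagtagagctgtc
WNT7B: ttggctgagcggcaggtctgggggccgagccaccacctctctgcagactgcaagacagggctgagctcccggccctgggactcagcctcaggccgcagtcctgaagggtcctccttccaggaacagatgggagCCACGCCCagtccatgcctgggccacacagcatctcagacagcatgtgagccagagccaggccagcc
A GC box lay in 1 of 43 WT As3+ windows (2.33%, against 7.76% of the list) and in 6 of 114 Nrf2 KO control windows (5.26%, against 4.61%). The ARE core was found in 5 of 43 (11.6%, 3.89% to 25.1%, against 9.36%) and 9 of 114 (7.89%, 3.67% to 14.5%, against 9.17%). AP-1 words were in 0 of 43 (an interval of 0.0% to 8.22%, against 4.33%) and 4 of 114 (3.51%, against 2.54%). The word shares of the lists lay within the intervals for the AP-1, ARE and GC box words in both libraries. For the GC box the intervals were 0.0589% to 12.3% in WT As3+ and 1.96% to 11.1% in Nrf2 KO control. The list share of the KLF core in WT As3+ also lay within its interval. For the KLF core the list share of the Nrf2 KO control lay above its interval, but not in windows of 100 bp (list share 5.00%, interval 0.546% to 7.5%) or at a −log10 q of at least 5 (8.69%, 0.0% to 14.8%). Median G and C content was 65.5% in the WT As3+ windows at the WNT genes and 64.5% in the list, and 63.8% against 61.5% in Nrf2 KO control. The median ratio of observed to expected CpG was lower at the WNT genes than in the list, at 0.371 against 0.564 in WT As3+ and 0.369 against 0.417 in Nrf2 KO control.

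The rest of the pathway followed the lists as well. Of 64 other WNT pathway genes, 2 (3.13%) had a peak in WT control, 54 (84.4%) in WT As3+, 61 (95.3%) in Nrf2 KO control and 0 in Nrf2 KO As3+. Both genes with a WT control peak were transducers, namely CTNNB1, which encodes β-catenin, and DVL1, which relays the signal from the receptor. Among the other 9 ligands 8 had a WT As3+ peak and 8 an Nrf2 KO control peak. The exceptions were WNT9B in WT As3+ and WNT8A in Nrf2 KO control. The highest folds of a WT As3+ peak were 6.03 at WNT16, 5.54 at WNT1 (the peak also counted at WNT10B), 5.12 at WNT2B, 5.10 at WNT2 and at WNT11, 4.08 at WNT8A, and 3.94 at WNT4 and at WNT8B. None of these reached the 13.2 of WNT10A.

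By role, a WT As3+ peak was listed at 2 of 2 genes of processing and release, 14 of 15 receptors, 7 of 9 genes of the R-spondin branch, 6 of 11 secreted inhibitors, 5 of 6 genes of the destruction complex, 8 of 8 transducers and 4 of 4 target genes. The Nrf2 KO control counts were 1, 15, 9, 10, 6, 8 and 4. The strongest WT As3+ peaks by −log10 q were at the transducers CTNNB1 (fold 13.0, 31 fragments, 4483 bp past the start) and DVL1 (fold 12.6, 31 fragments). ROR2, a receptor for WNT5A, came next (fold 12.5, 26 fragments). The strongest gene of the R-spondin branch was LGR6, a receptor, with a fold of 9.0, and of the target genes SP5, a target of the canonical branch, with 7.13. The strongest peaks of the other roles were lower, with folds of 5.42 at APC of the destruction complex, 5.36 at SFRP1, a secreted inhibitor, and 5.27 at WLS.

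The 3 pathway genes whose peak counts over the 4 libraries were most like those of WNT10A (0, 8, 11 and 0) were TCF7L2 with 0, 6, 13 and 0, NOTUM with 0, 7, 8 and 0, and ROR2 with 0, 7, 17 and 0. Their Euclidean distances to WNT10A in log2(1 + peaks) were 0.425, 0.448 and 0.609, over 4 libraries. TCF7L2 is a nuclear partner of β-catenin and NOTUM an enzyme that removes the lipid from WNT ligands. Likeness here is in counts of peaks only, not scaled to the length of the genes.

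**Figure D5:**
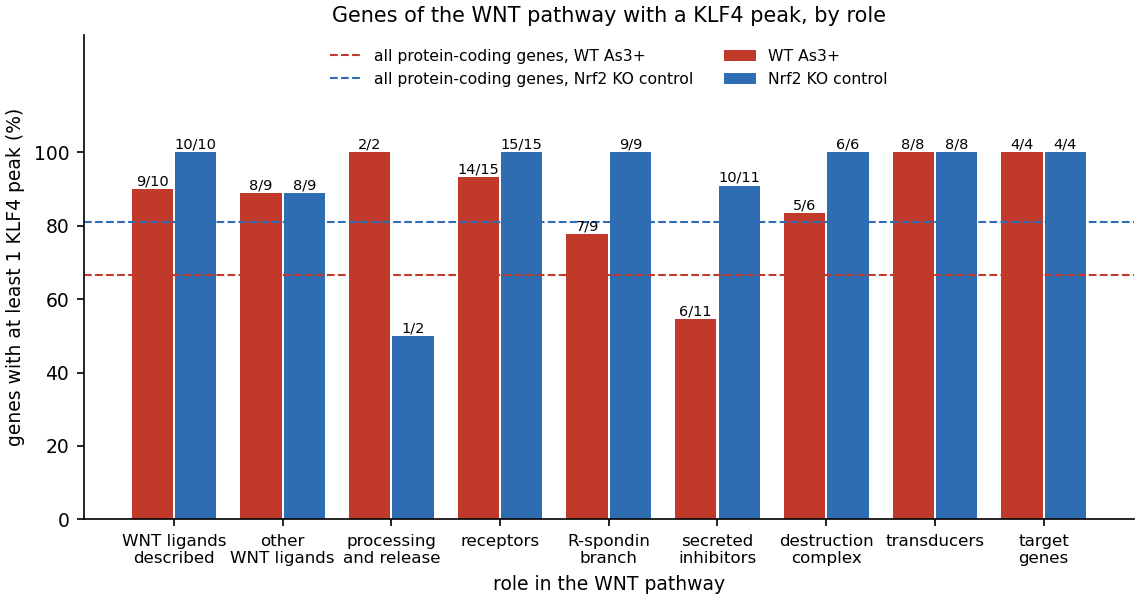
Share of genes with at least 1 KLF4 peak (y axis, %) by role in the WNT pathway (x axis) in WT As3+ and Nrf2 KO control, with the number of genes above each bar and dashed lines at the shares of all protein-coding genes, 66.5% and 81.0%. The secreted inhibitors, 6 of 11, are the one role below the line of its library in WT As3+, and processing and release, 1 of 2, the one below it in Nrf2 KO control.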

How the data were processed

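KLF4 ChIP-seq peak lists of 4 BEAS-2B libraries were used, 1 per condition. The authors aligned reads to GRCh38/hg38 with BWA and deposited 1 list per library. The peak caller is not given in the sources used here, and the submitters' processing notes name bcl2fastq 2.17. Per peak the authors give a fold enrichment (a ratio to local background), −log10 p and −log10 q values and a score derived from q, which was not used. The histone and input libraries were not analysed here. The 10 genes and the pathway lists were chosen with earlier results of these data known.

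Fragments (n) and background (λ) were solved from fold = (n + 1)/(λ + 1) and an upper Poisson tail, and the −log10 p was met within 0.000405. The solver was tested on simulated data. A summit from 10 kb upstream to 2 kb past a gene (GENCODE 44, outermost start and end) was counted. Named genes were all 10 members with their strongest peaks, the pathway gene with the highest −log10 q of each role, ligands with a WT As3+ peak, and the 3 genes nearest WNT10A. CTNNB1 in WT control, DVL1, WNT9B and FBXL14 were named after their values were seen. Alternatives were thresholds, windows, starts, list lengths and overlap. Lists hold no read totals, so precision rests on n. Python 3.11.15, numpy, scipy, pandas and pysam were used.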

Additional observations from a re-analysis of the deposited data

Results flagged for a closer look

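The change with As3+ ran in opposite directions in the 2 genotypes at the WNT ligand genes. In WT cells the number of the 10 genes with a KLF4 peak changed by 9, from 0 to 9, and the number of distinct peaks by 43, from 0 to 43. In Nrf2 KO cells the number of genes changed by -10, from 10 to 0, and the number of peaks by -114, from 114 to 0. The difference between the genotypes was not tested, because each condition had 1 library. The same direction held for the whole lists, from 751 to 29870 peaks in WT and from 76545 to 130 in Nrf2 KO cells. The lowest local background moved with it, from 1.90 to 0.757 fragments in WT and from 0.491 to 1.64 in Nrf2 KO cells, and its part in the change was not tested. An exchange of the labels of both Nrf2 KO libraries cannot be told apart from this change.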

How the results depend on the processing

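Of 106 values recomputed under another setting, 83 stayed within 1.5 times the reported count or within the interval of the reported share, and 23 did not. No setting gave a WNT ligand gene a peak in WT control or Nrf2 KO As3+, but this was fixed in advance. The nearest such peaks lay 37.1 kb and 276 kb outside the windows, and no setting reached that far. These values of 0 are among the 83 and say nothing about stability. A −log10 q of at least 5 left 5 genes with a peak in WT As3+ (also 5 counted against WT control or against Nrf2 KO As3+), 14 WT As3+ and 23 Nrf2 KO control peaks, and of other pathway genes 0 in WT control and 27 in WT As3+. It moved the share of WT As3+ peaks with an Nrf2 KO control peak to 42.9%, the Nrf2 KO control share near a start to 30.4%, and the shares with a KLF core to 0.0% in both libraries, with a GC box in WT As3+ to 0.0% and with an AP-1 word in Nrf2 KO control to 0.0%. Lists shortened to the 751 peaks of WT control left 1 gene (1 against either other list) and 2 peaks in WT As3+, and 0 genes and 0 peaks in Nrf2 KO control. Shortened to the 29870 of WT As3+, Nrf2 KO control kept 57 peaks. Windows of 100 bp moved 3 Nrf2 KO control shares, to 0.877% for the GC box, 0.877% for AP-1 and 1.75% for the ARE core. Shorter lists hold fewer peaks by construction; the cause of the other shifts was not tested.

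Each list stops at its own threshold, so signal below it is not seen, and with 1 library per condition no spread between replicates is known. Most member peaks rest on few fragments, with a median of 9 in WT As3+ and 7 in Nrf2 KO control. No paired analysis was possible because each condition had 1 library and no result comes from a test.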
